A study of Drosophila melanogaster with 73 samples.

Results

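The heat shock protein and cognate genes examined here are 9 of the 23932 genes in a transcript table of the fly abdominal fat body, chosen by symbol: Hsp22, Hsp23, Hsp26, Hsp27, Hsp68, Hsp83, Hsc70-4, Hsc70-5 and Hsp60A. Mated females of Iso31, an isogenic w1118 strain, were entrained for 3 days to cycles of 12 h light and 12 h dark at 25°C and were 7 days old when the cold group was moved to 18°C. The 4 groups were 18°C on days 4-5 after the shift (24 libraries, 19 of replicate 1 and 5 of replicate 2), 25°C on days 4-5 (26 libraries, 19 of replicate 1 and 7 of replicate 2), 18°C on days 1-2 (18 libraries, 1 per time point) and 25°C on days 1-2 (5 libraries). Each library held the fat tissue of pooled flies, and all groups shared strain, sex, diet and light cycle. The series asks how circadian transcription responds to temperature, and time of day is given as zeitgeber time (ZT, hours after lights on).

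Heat shock proteins are chaperones that bind unfolded proteins. Small heat shock proteins hold unfolded clients without using ATP, the Hsp70 family folds them in cycles of ATP hydrolysis, Hsp90 completes the folding of signalling proteins, and the chaperonin Hsp60 encloses clients in the mitochondrial matrix. In flies the heat shock factor Hsf switches on the inducible members within minutes of heat, and some members are also induced during recovery from cold. The cognates (Hsc) and Hsp60A are made in unstressed cells at all times.

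Expression was measured as TPM, a share of the library total that is scaled by transcript length, so the levels of different genes can be compared. TPM keeps no sequencing depth, so no counting error can be given and the precision rests on the number of libraries. The number of genes above 0 TPM ran from 11465 to 12810 per library. As a check of the tissue label, the summed TPM of fat body markers lay between 20995 and 55212 in every library. Eggshell markers summed to between 0 and 13041 TPM and gut markers to between 0 and 8995 TPM, so some libraries held RNA typical of neighbouring tissues. Marker values are given beside several of the results that follow.

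The 4 small heat shock protein genes sit together on chromosome arm 3L. In the Ensembl BDGP6.54 annotation Hsp22 (FBgn0001223) spans 3L 9372931 to 9374964 on the plus strand, Hsp26 (FBgn0001225) 9376418 to 9377427 on the minus strand, Hsp23 (FBgn0001224) 9381882 to 9382765 on the plus strand and Hsp27 (FBgn0001226) 9384063 to 9385694 on the plus strand. They lie within 12764 bases, among 9 annotated genes that overlap this span. Hsp23, Hsp26 and Hsp27 have 1 exon each. All 1900 exonic bases of Hsp22 are also exonic in CG4456 on the same strand, so the division of reads between those genes is an estimate and the level of Hsp22 is uncertain in all that follows. Of the exonic bases of Hsp27, 49 are shared with CR43483 on the opposite strand, which non-stranded libraries cannot tell apart.

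The other 5 genes are scattered. Hsp68 (FBgn0001230, 3R 24055080 to 24057310, minus strand) has 1 exon and encodes a stress-inducible member of the Hsp70 family. Hsp83 (FBgn0001233, 3L 3192969 to 3197059, plus strand) has 2 exons and encodes the fly Hsp90. Hsc70-4 (FBgn0266599, 3R 15242687 to 15246614, plus strand) encodes the main cytosolic Hsp70 of unstressed cells. Hsc70-5 (FBgn0001220, 2R 14252598 to 14256192, minus strand, 6 exons) encodes the mitochondrial Hsp70, and Hsp60A (FBgn0015245, X 11108482 to 11112308, plus strand, 3 exons) the mitochondrial chaperonin. Up to 26 exonic bases of Hsp68 and 15 of Hsp83 are shared with genes on the opposite strand.

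The levels of the 9 genes fell into a steady and an erratic part. Over all 73 libraries the median was 2103 TPM for Hsc70-4, 1110 TPM for Hsp83, 209.6 TPM for Hsp60A and 147 TPM for Hsc70-5. Hsc70-4 exceeded Hsp83, and Hsp83 exceeded Hsp60A, in 73 of 73 libraries, and Hsp60A exceeded Hsc70-5 in 72 of 73. The inducible genes followed with medians of 48.0 TPM for Hsp26, 14.1 TPM for Hsp68, 12.6 TPM for Hsp22, 10.6 TPM for Hsp27 and 5.28 TPM for Hsp23. Their order was loose, since Hsp26 exceeded Hsp68 in 57 libraries, Hsp68 exceeded Hsp22 in 54, Hsp22 exceeded Hsp27 in 48 and Hsp27 exceeded Hsp23 in 52 of 73.

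**Figure D1:**
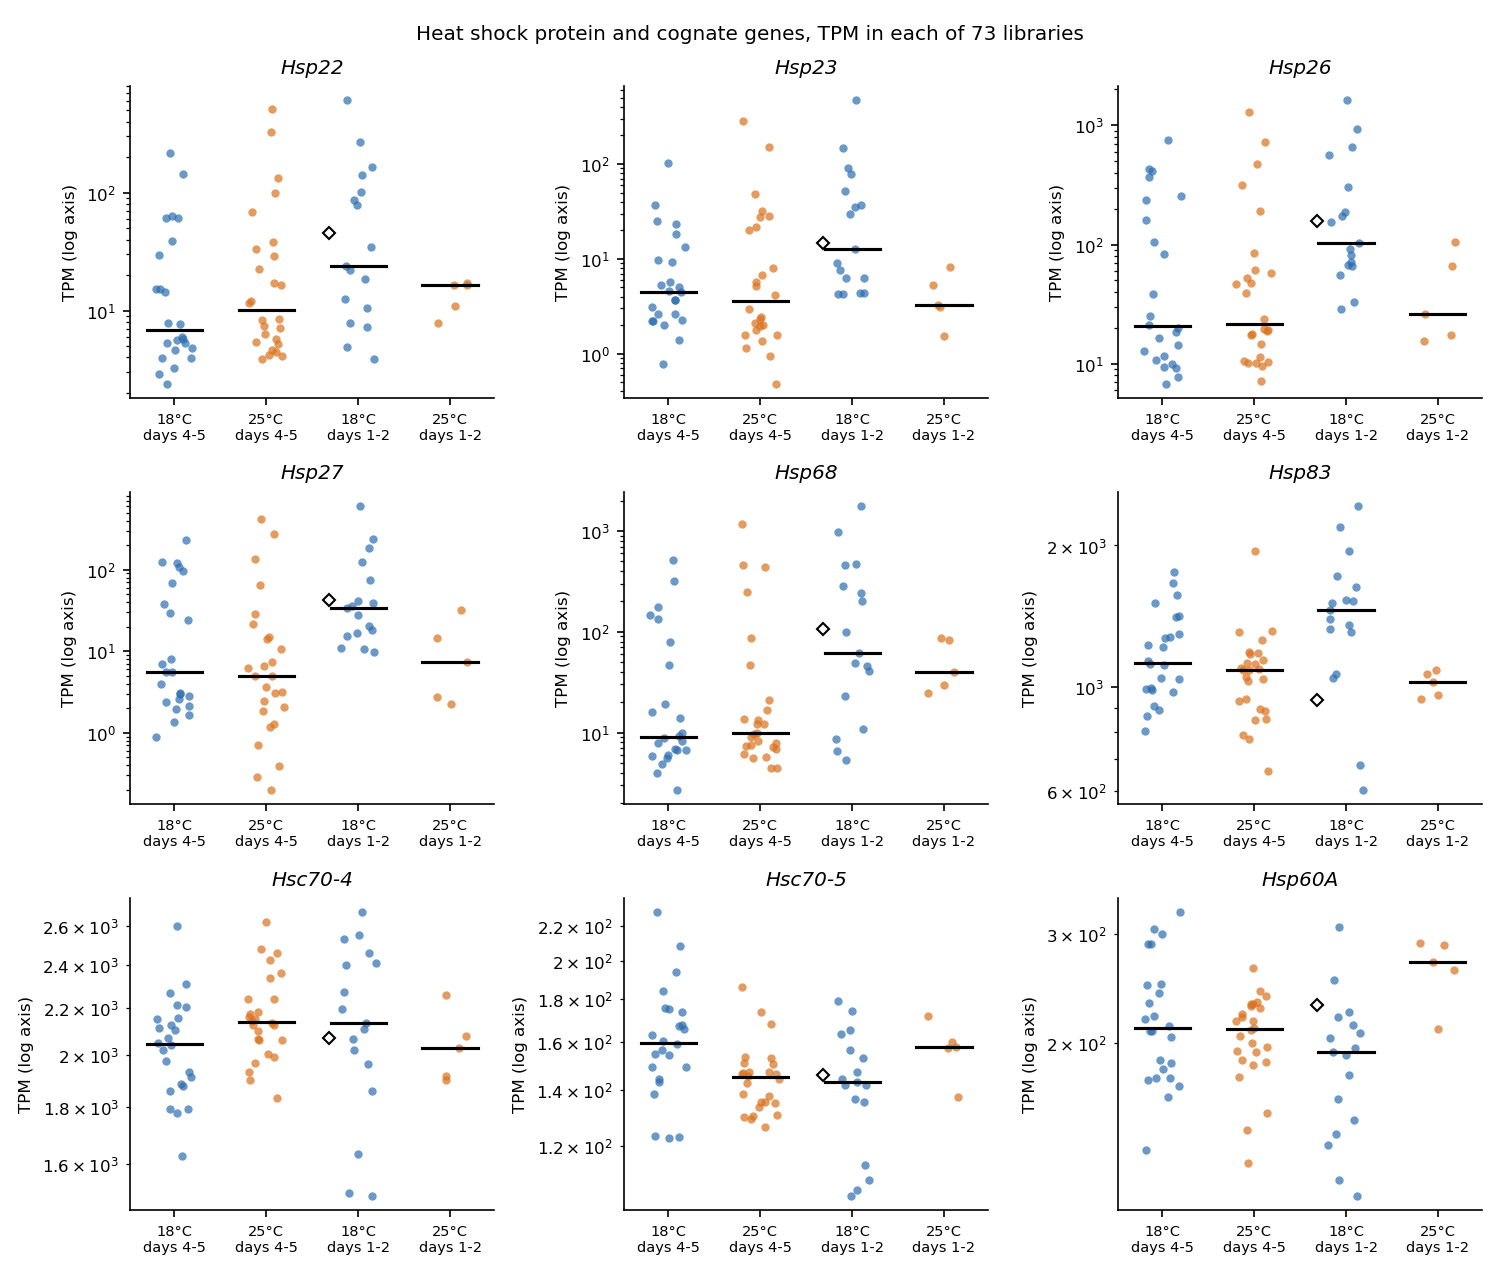
TPM (log axis, a separate range in each panel) of the 9 genes in every library, by group. Dots are libraries, black lines are medians over the dots, and the open diamond is the library taken at the moment of the shift, which the median leaves out. Hsp22, Hsp23, Hsp26, Hsp27 and Hsp68 spread widely within the groups of 18 or more libraries, whereas Hsc70-4 stays between 1501 and 2675 TPM in all libraries.

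The scatter of the inducible genes within a group was far above that of most transcripts. Hsp26, a cytosolic small heat shock protein, ranged from 6.78 TPM at the lowest through a median of 20.6 to 747 TPM at the highest at 18°C on days 4-5, against 7.23, 21.6 and 1285 TPM at 25°C on days 4-5. Hsp68 had a lowest, median and highest value of 2.7, 9.0 and 511 TPM at 18°C, against 4.49, 9.79 and 1167 TPM at 25°C. The ranges at both temperatures overlapped almost fully, and the medians differed by far less than the range.

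The other inducible genes behaved alike on days 4-5. Hsp22, which resides in mitochondria, had a lowest, median and highest value of 2.39, 6.86 and 216 TPM at 18°C, against 3.85, 10.01 and 513 TPM at 25°C. Hsp27, a nuclear small heat shock protein, had 0.89, 5.54 and 231 TPM at 18°C, against 0.20, 5.00 and 422 TPM at 25°C. Hsp23, a cytosolic one, had 0.78, 4.49 and 103 TPM at 18°C, against 0.48, 3.57 and 287 TPM at 25°C. Around a 24 h fit, the residual SD of Hsp22, Hsp26, Hsp27 and Hsp68 on the log2(TPM + 1) scale was between 1.62 and 2.15 at 18°C and between 1.79 and 2.15 at 25°C, which placed them above 98.7% of the 7358 tested genes or more in both groups. The median gene had a residual SD of 0.29 at 18°C and 0.20 at 25°C.

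The constitutive genes scattered far less. Hsc70-4 had a lowest, median and highest value of 1629, 2046 and 2598 TPM at 18°C, against 1833, 2137 and 2623 TPM at 25°C on days 4-5. Its residual SD of 0.14 at 18°C and 0.13 at 25°C was larger than that of only 3.21% and 10.7% of tested genes at those temperatures. Hsc70-5 had 123, 159.7 and 229 TPM at 18°C, against 127, 145 and 186 TPM at 25°C, with a residual SD of 0.22 at 18°C and 0.12 at 25°C, above 28% and 7.47% of tested genes. Hsp83 ranged from 805 to 1759 TPM at 18°C and from 659 to 1945 TPM at 25°C, and Hsp60A from 134 to 325 TPM at 18°C and from 128 to 264 TPM at 25°C. Their residual SD lay in the middle of the scale, above 40.4% of tested genes at 18°C and 67.7% at 25°C for Hsp83, and above 58.7% at 18°C and 58.3% at 25°C for Hsp60A.

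High values of the inducible genes came in a few libraries, single or next to each other in time, and mostly in several of these genes at once. At 25°C the highest library was replicate 1 at ZT18 of day 4, with 513 TPM of Hsp22, 287 of Hsp23, 1285 of Hsp26, 422 of Hsp27 and 1167 of Hsp68. The replicate 2 library of the same temperature, day and hour held 4.09 TPM of Hsp22, 2.45 of Hsp23, 23.6 of Hsp26, 7.30 of Hsp27 and 8.17 of Hsp68. At 18°C the highest library was replicate 1 at ZT20 of day 4, with 216 TPM of Hsp22, 103 of Hsp23, 747 of Hsp26, 231 of Hsp27 and 511 of Hsp68. That library was followed 2 h later by one with 4.63 TPM of Hsp22, 18.3 of Hsp26 and 2.7 of Hsp68.

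The libraries that stood high were largely common to the 5 genes, with exceptions such as 18°C at ZT18 of day 5, which held 238 TPM of Hsp26 but 5.63 TPM of Hsp68 and 7.79 TPM of Hsp22. The 4 highest libraries of each of the 5 genes fell on 6 libraries at 18°C on days 4-5, on 5 at 25°C on days 4-5 and on 5 at 18°C on days 1-2. Among the highest 4 for all 5 genes were replicate 2 at ZT12 of day 4 and replicate 1 at ZT20 of day 4 at 18°C, and replicate 1 at ZT18 and ZT22 of day 4 and at ZT06 of day 5 at 25°C. At 18°C, 4 of these 6 libraries on days 4-5 held ranks 2 to 5 of 24 in eggshell markers, with sums of 12730, 7635, 7242 and 4724 TPM, and the other 2 held 3.70 and 64.2 TPM. In germline markers the 6 libraries held ranks 1, 3, 4, 5, 16 and 17 of 24, with 627 TPM at ZT20 of day 4 and 449 TPM at ZT18 of day 5. Ranks 1 and 6 in eggshell markers were the 18°C libraries at ZT00 of day 5 and ZT10 of day 4. They held 254 and 105 TPM of Hsp26, and 78.4 and 6.66 TPM of Hsp68. At 25°C, 1 of the 5 libraries held rank 2 of 26 in eggshell markers with 1318 TPM, and the others held between 0.50 and 32.4 TPM. The highest 25°C library (ZT18 of day 4) had 15.5 TPM of eggshell and 1.20 TPM of gut markers. The part of these markers in the scatter was not tested.

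Libraries of the same temperature, day and hour could be compared at 12 points on days 4-5. The larger of both replicates exceeded the smaller by a median of 15 times for Hsp68 (1.61 to 143 times), 6.03 times for Hsp23, 5.51 times for Hsp27, 5.39 times for Hsp22 and 3.93 times for Hsp26. The same ratio had a median of 1.25 for Hsp83, 1.18 for Hsp60A, 1.12 for Hsc70-4 and 1.1 for Hsc70-5. For Hsc70-4 the replicates never differed by more than 1.18 times. Within replicate 1, libraries of the same hour on day 5 and day 4 could be compared at 14 points, where the median ratio of larger to smaller was 3.34 for Hsp27, 2.72 for Hsp23, 2.64 for Hsp26, 1.80 for Hsp68 and 1.51 for Hsp22, with highest values between 60.1 and 361. For Hsc70-4 the median ratio was 1.09 and the highest 1.23.

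**Figure D2:**
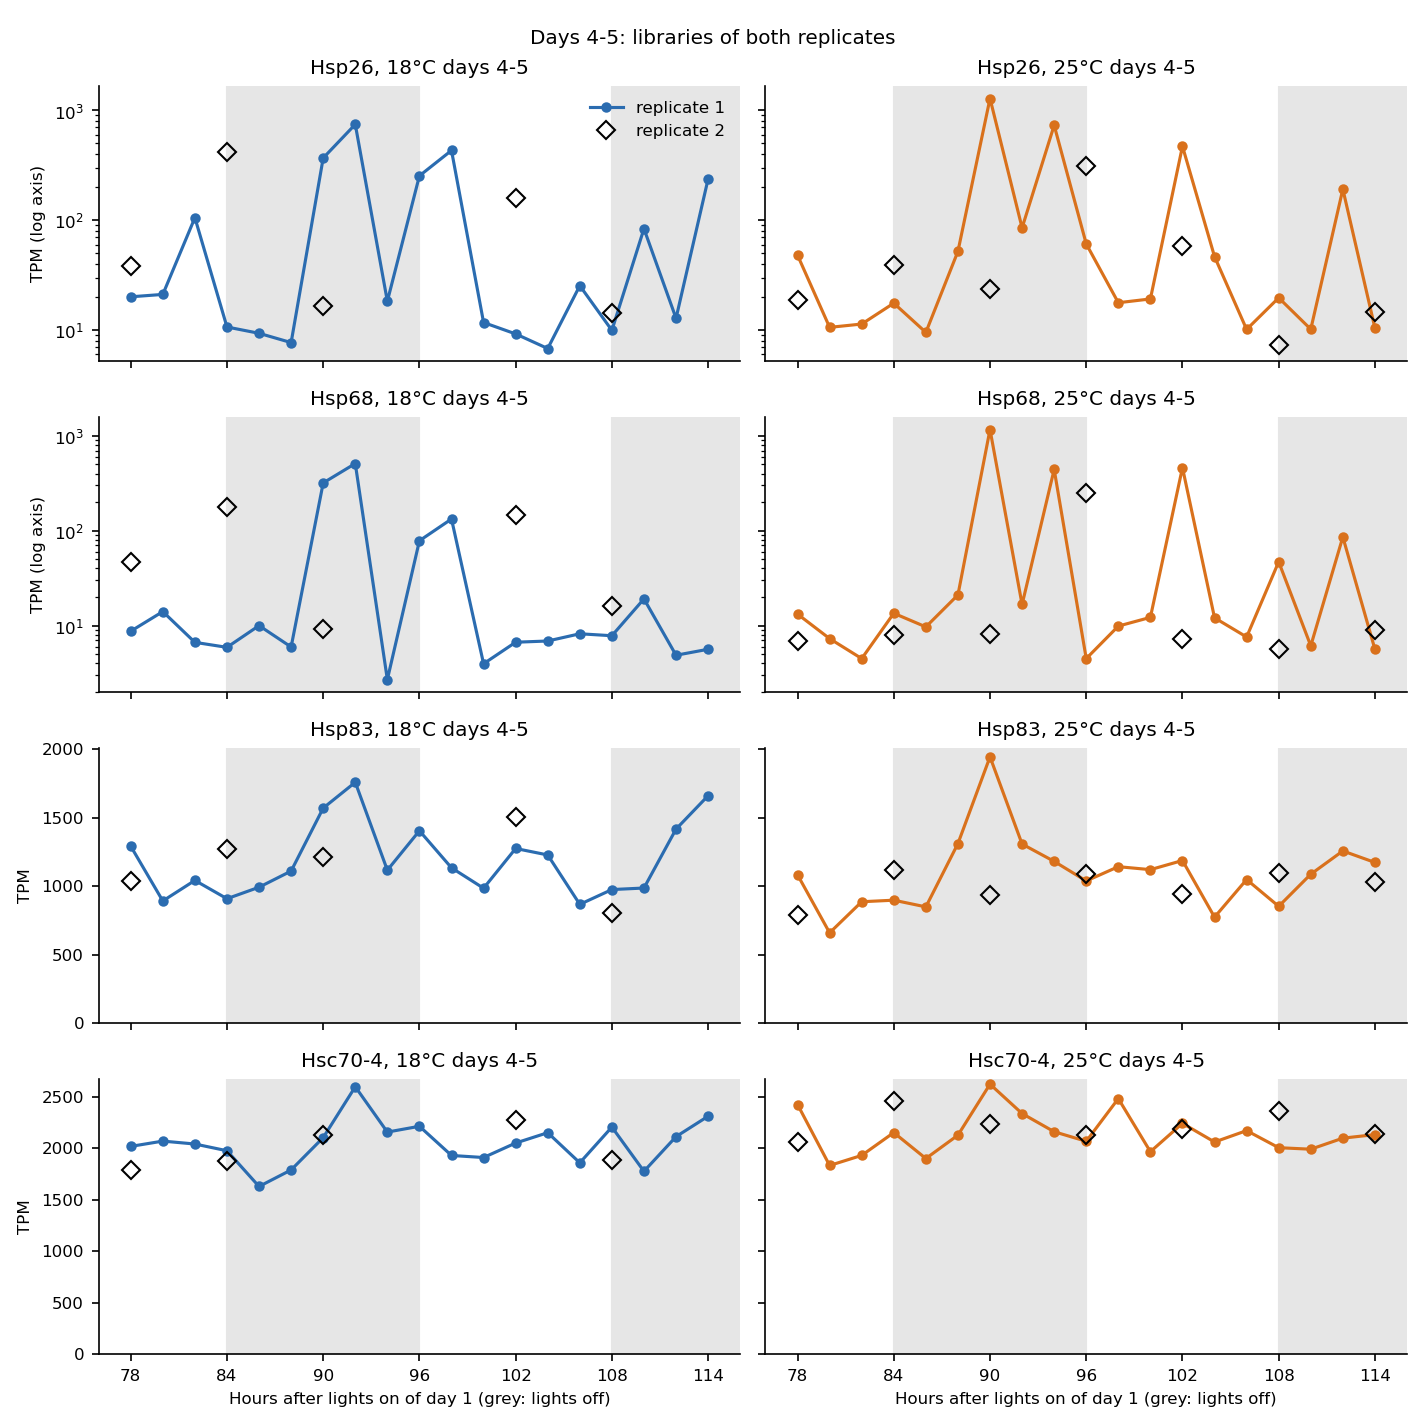
TPM of Hsp26 and Hsp68 (log axis) and of Hsp83 and Hsc70-4 (linear axis from 0) against hours after lights on of day 1, on days 4-5 at 18°C (left) and 25°C (right). Filled circles joined by lines are replicate 1, open diamonds are replicate 2, and grey marks lights off. Hsp26 and Hsp68 jump in a few libraries, such as 1285 TPM of Hsp26 in replicate 1 at 90 h at 25°C beside 23.6 TPM in replicate 2, while Hsc70-4 stays close to its median.

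Residuals after the 24 h fit measured this co-variation. It was computed for 36 pairs of genes at each temperature, 72 correlations in all, with permutation p-values from 100000 resamples and Benjamini-Hochberg adjustment over the 72. All 10 pairs among Hsp22, Hsp23, Hsp26, Hsp27 and Hsp68 passed an adjusted p of 0.05 at both temperatures. Pearson's r ran from 0.653 to 0.978 at 18°C (24 libraries) and from 0.770 to 0.976 at 25°C (26 libraries), and Spearman's rho from 0.590 to 0.969 at 18°C and from 0.759 to 0.968 at 25°C. Without the 2 libraries farthest from the median of the first gene of a pair, r ran from 0.491 to 0.969 at 18°C and from 0.611 to 0.957 at 25°C. The tightest pair was Hsp26 and Hsp27, with r = 0.978 at 18°C and 0.976 at 25°C (each with permutation p = 1e-05, the smallest that these resamples can give, adjusted p = 5.5e-05). All values of a library share that library's total and tissue makeup, and the points of a correlation are libraries of pooled flies.

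Hsp83 stood between both sets of genes. At 25°C its r with the 5 inducible genes ran from 0.486 to 0.544, and 5 of 5 pairs passed the threshold, with adjusted permutation p-values up to 0.0252. At 18°C r ran from 0.346 to 0.517 and 2 of 5 pairs passed. These relations rested on the libraries farthest from the median, since without the 2 farthest r ran from 0.099 to 0.226 at 25°C and from 0.145 to 0.391 at 18°C, and no Spearman rho of Hsp83 with these genes passed the threshold at either temperature. With Hsc70-4, Hsp83 had r = 0.562 at 18°C (rho = 0.542, adjusted permutation p of r = 0.0130) and r = 0.673 at 25°C (rho = 0.608, adjusted permutation p of r = 5.4e-04), and r without the 2 farthest libraries was 0.474 at 18°C and 0.516 at 25°C.

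The mitochondrial pair moved together as well. Hsc70-5 and Hsp60A had r = 0.708 at 18°C (rho = 0.649, adjusted permutation p of r = 4.55e-04) and r = 0.720 at 25°C (rho = 0.713, adjusted permutation p of r = 1.6e-04), with r = 0.687 at 18°C and 0.595 at 25°C without the 2 farthest libraries. This was not particular to the mitochondrial pair at 25°C, where the cytosolic Hsc70-4 passed with both genes. Its r was 0.63 with Hsc70-5 (rho = 0.657, adjusted permutation p of r = 0.00158) and 0.63 with Hsp60A (rho = 0.688, adjusted permutation p of r = 0.00106). At 18°C neither passed, with r = 0.322 and 0.385 (adjusted permutation p = 0.184 and 0.114). Between Hsc70-4, Hsc70-5 or Hsp60A and the 5 inducible genes, 1 of 15 pairs passed at 18°C and 0 of 15 at 25°C. The pair that passed was Hsp23 with Hsc70-5 at 18°C, where r was -0.513 (rho = -0.553, adjusted permutation p of r = 0.0247, -0.636 without the 2 farthest libraries). By Spearman's rho Hsp68 with Hsc70-5 passed as well at 18°C (rho = -0.589, adjusted permutation p = 0.00928), where r was -0.458 (adjusted permutation p = 0.0510). Hsp23 with Hsc70-5 had r = 0.262 at 25°C, and the difference between temperatures was not tested. With the 24 h terms kept, this pair had r = -0.358 at 18°C. On rescaled TPM at 18°C, r with Hsc70-5 was -0.570 for Hsp23, -0.574 for Hsp26 and -0.547 for Hsp27, without a permutation test.

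**Figure D3:**
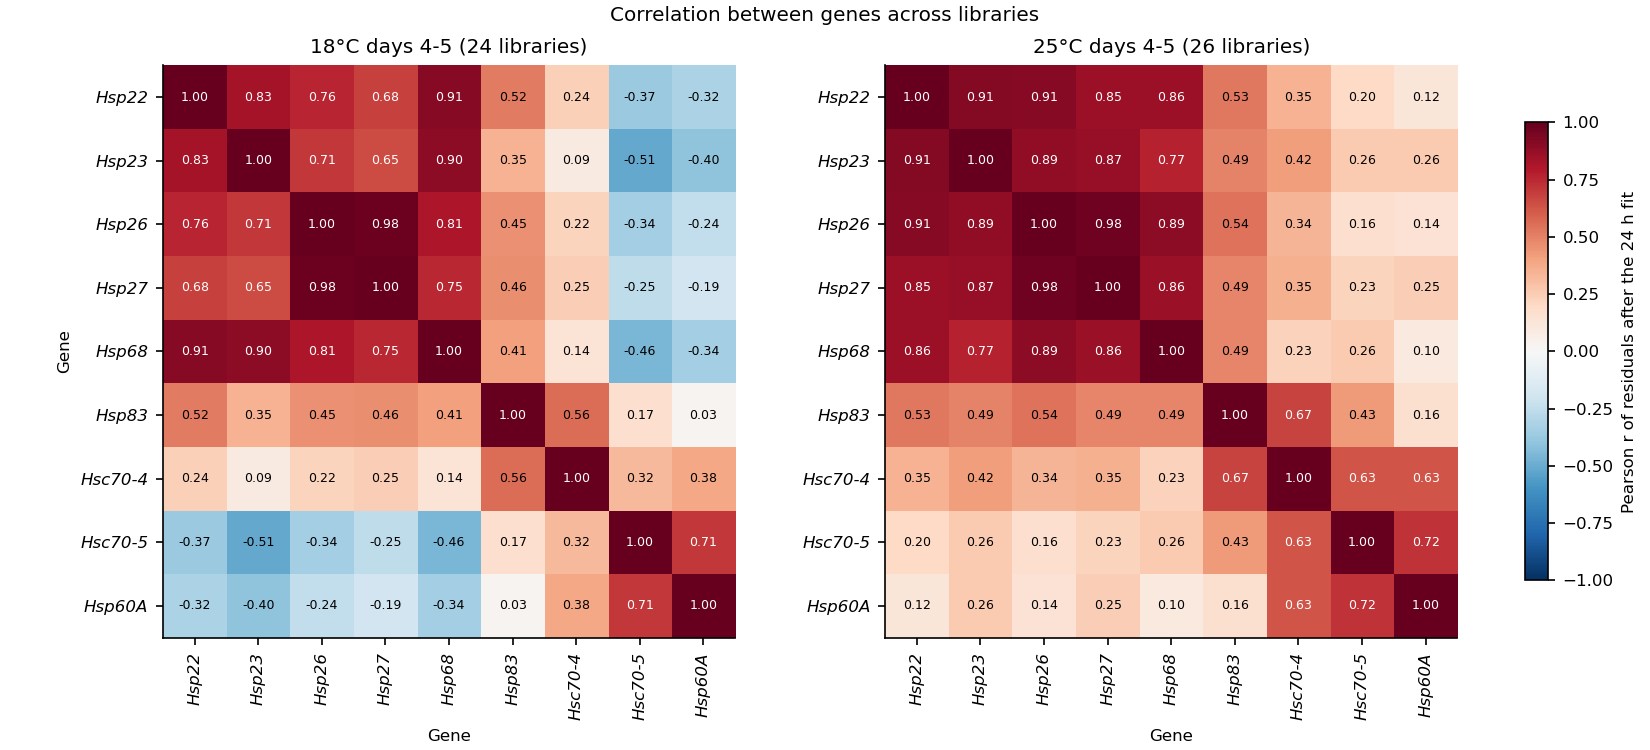
Pearson r between the 9 genes, computed on residuals of log2(TPM + 1) after a 24 h fit, over 24 libraries at 18°C (left) and 26 at 25°C (right) on days 4-5. Red is positive and blue negative. The block of Hsp22, Hsp23, Hsp26, Hsp27 and Hsp68 has r from 0.653 upward at 18°C and from 0.770 upward at 25°C.

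Genes outside the set with the most similar pattern were named by Pearson's r of log2(TPM + 1) over all 73 libraries, as a description. DnaJ-1, an Hsp40 co-chaperone of Hsp70, ranked first or second for all 5 inducible genes, with r between 0.795 for Hsp23 and 0.935 for Hsp68. Hsp70Ab was among the first 3 for Hsp22, Hsp26, Hsp27 and Hsp68, with r between 0.813 and 0.935. The BAG-domain co-chaperone gene stv (starvin) was among the first 3 for Hsp22, Hsp23, Hsp26 and Hsp27, with r between 0.760 and 0.822, and the heat-inducible noncoding RNA lncRNA:Hsromega for Hsp23 (r = 0.760) and Hsp68 (r = 0.867). Hsp83 was most like CG5290 (r = 0.830), Hsc70Cb (r = 0.745) and CG6511 (r = 0.734). Hsc70-4 was most like Stip1, whose protein links Hsp70 to Hsp90 (r = 0.780), CG5290 (r = 0.744) and CG1416 (r = 0.730), Hsc70-5 was most like Pfas (r = 0.693), Roe1 (r = 0.675) and clu (r = 0.660), and Hsp60A was most like CG5504 (r = 0.793), bor (r = 0.786) and CG10576 (r = 0.783).

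After the flies had settled at 18°C, few of the genes passed a test of the level against 25°C, and the errors of the inducible genes were large. Levels were compared on days 4-5 on the log2(TPM + 1) scale with limma, with shared 24 h terms and Benjamini-Hochberg adjustment over the 7358 genes whose median exceeded 5 TPM in 1 of those groups or both, and the threshold was an adjusted p of 0.05. Of the 9 genes 8 entered, since Hsp23 was below that filter. Of these 8, 2 were higher at 18°C and 0 lower, where 50.7% of all tested genes passed (35.3% higher and 15.5% lower). Among all called genes 69.6% were higher at 18°C, and 53.8% after each library was rescaled to a common median ratio. The median difference was 0.12 over the 8 genes, against 0.09 over all tested genes. The p-values measure the spread between these libraries, since the labels do not say whether replicates came from separate cultures.

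The 18°C libraries exceeded the 25°C libraries in Hsc70-5 by 0.15 (SE 0.05, limma adjusted p = 0.0101), with medians of 159.7 TPM at 18°C and 145 TPM at 25°C. For Hsp83 the difference was 0.17 (SE 0.072, limma adjusted p = 0.0497), with medians of 1126 TPM at 18°C and 1085 TPM at 25°C and ranges that overlapped. Neither call held on rescaled TPM, where the difference was 0.082 for Hsc70-5 (limma adjusted p = 0.211) and 0.097 for Hsp83 (limma adjusted p = 0.256). The call of Hsp83 was also lost in 28 of the 50 fits that left out 1 library, with limma adjusted p-values between 0.0149 and 0.0820 over the 50. Without replicate 1, which leaves 12 libraries, Hsc70-5 was at -0.12. Eggshell markers had a median sum of 154 TPM at 18°C and 24 TPM at 25°C, and muscle markers 2032 TPM at 18°C and 2888 TPM at 25°C. With germline, eggshell and gut scores as covariates the call of Hsp83 was lost (0.12, limma adjusted p = 0.215) and that of Hsc70-5 stood. The call of Hsp83 was also lost with a pseudocount of 0.1, without the filter on low values, with library weights and without either replicate, with limma adjusted p-values between 0.0504 and 0.464.

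The remaining genes did not pass. Hsc70-4 had a difference of -0.086 (SE 0.039, limma adjusted p = 0.0617), which passed after rescaling at -0.16 (limma adjusted p = 0.00116) and with the marker scores as covariates at -0.12 (limma adjusted p = 0.0133), and with library weights (limma adjusted p = 0.0408). Hsp60A had 0.095 (SE 0.076, limma adjusted p = 0.301), which passed without replicate 2 at 0.21 (limma adjusted p = 0.0424). The inducible genes had larger errors: Hsp22 was at -0.31 (SE 0.462), Hsp26 at 0.17 (SE 0.525), Hsp27 at 0.63 (SE 0.563) and Hsp68 at 0.025 (SE 0.572), with limma adjusted p-values of 0.601, 0.802, 0.362 and 0.975, and the marker scores turned the sign of Hsp26, Hsp27 and Hsp68 (-0.40, -0.040 and -0.24). Hsp23, tested without the filter on low values, had -0.048 (SE 0.452, limma adjusted p = 0.955).

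**Figure D4:**
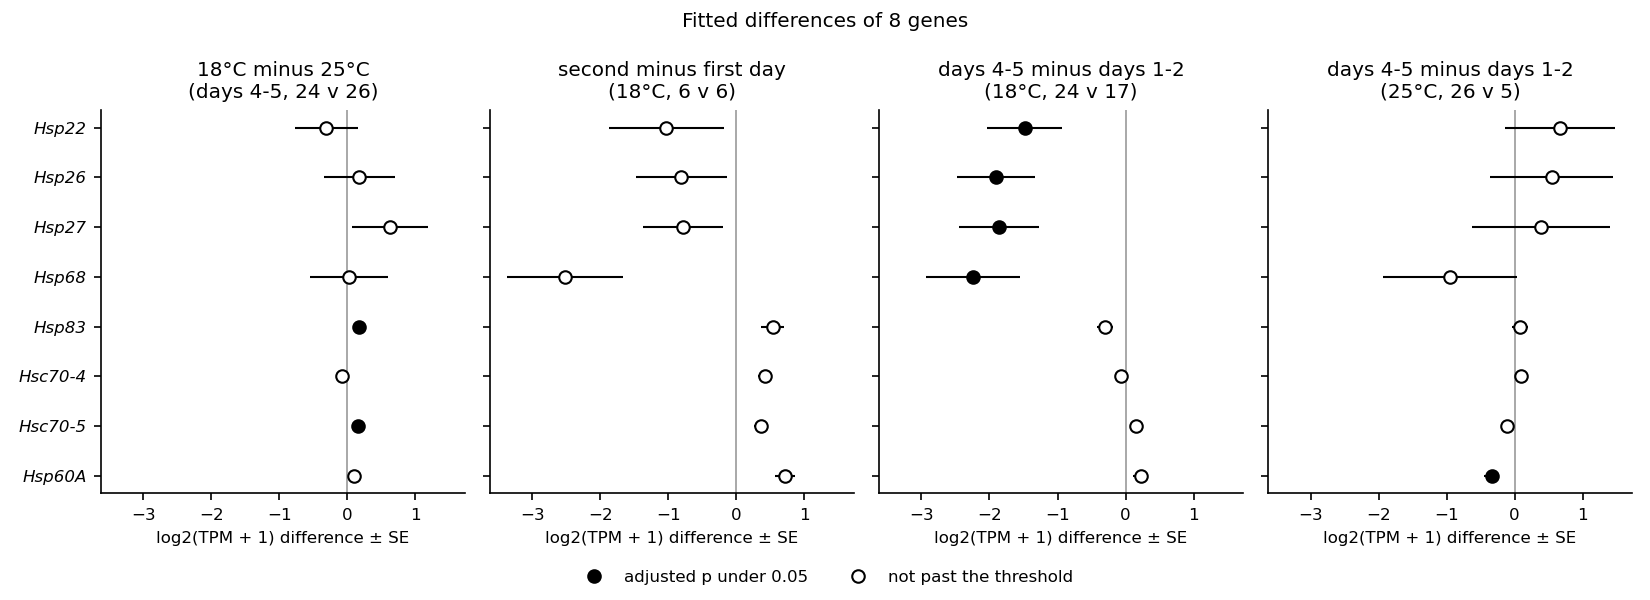
Fitted differences of 8 genes on the log2(TPM + 1) scale, with the SE as bars, in 4 comparisons with the numbers of libraries given above each panel. Filled points passed a limma adjusted p of 0.05. Hsp22, Hsp26, Hsp27 and Hsp68 lie between -2.24 and -1.48 for days 4-5 minus days 1-2 at 18°C, the panel with the most filled points.

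No daily rhythm of these genes passed the threshold. At 18°C on days 4-5, 0 of 8 genes had an adjusted p under 0.05 in a harmonic regression with a 24 h period, where 1.78% of all tested genes passed, and at 25°C 0 of 8, where 5.04% passed. At an unadjusted p under 0.05 the counts were 1 of 8 at 18°C, where 27.4% of all genes lay, and 4 of 8 at 25°C, where 22% lay. Hsp83 came closest at both temperatures. Its fitted amplitude was 0.28 (SE 0.081) on the log2 scale with a maximum at ZT 22 (SE 1.01 h) at 18°C (harmonic regression p = 0.00858, adjusted p = 0.0876 over all genes), and 0.25 (SE 0.072) with a maximum at ZT 20.3 (SE 1.16 h) at 25°C (p = 0.00822, adjusted p = 0.0933). Without replicate 2 the rhythm of Hsp83 at 18°C passed (amplitude 0.30, adjusted p = 0.0473).

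The fitted maxima of Hsp22, Hsp26, Hsp27 and Hsp68 lay between ZT 22.1 and ZT 23.4 at 18°C and between ZT 22.1 and ZT 23.3 at 25°C. The smallest unadjusted p was 0.0150 for Hsp27 at 25°C (amplitude 1.91, SE 0.599, adjusted p = 0.127). Of the libraries with more than 100 TPM of Hsp26, 4 of 8 at 18°C and 3 of 5 at 25°C came from the dark phase and its onset (ZT12 to ZT22), which held 13 of 24 libraries at 18°C and 14 of 26 at 25°C. A test for a rhythm that differs between temperatures passed for 0 of 8 genes, where 0.435% of all tested genes passed, and 0 of 8 had an unadjusted p under 0.05 (14% of all genes).

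In the hours after the shift the inducible genes varied widely as well. At 18°C Hsp26 had 158 TPM in the library taken at the moment of the shift, 301 TPM after 2 h, between 55.6 and 67.1 TPM after 4 to 8 h, 654 TPM after 10 h, 91.0 TPM after 12 h, 937 TPM after 14 h, 189 TPM after 16 h, 564 TPM after 20 h and 1627 TPM after 22 h. From 24 h to 36 h it lay between 28.5 and 174 TPM. Hsp68 ran in parallel, with 106 TPM at the shift, 462 TPM after 10 h, 983 TPM after 14 h and 1763 TPM after 22 h, and values between 5.36 and 200 TPM from 24 h to 36 h. The highest value of all 5 inducible genes in the whole series fell in the 22 h library.

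That library held 607 TPM of Hsp22, 471 of Hsp23 and 599 of Hsp27, and the 5 inducible genes made up 48.7% of the summed TPM of the 9 genes in it. In the median library of 18°C on days 1-2 they made up 7.85%, against 1.63% at 18°C on days 4-5 and 1.87% at 25°C on days 4-5. The 22 h library had 32.9 TPM of eggshell markers, 8.06 of gut markers and 70.6 of germline markers, which were ranks 11, 11 and 8 of 18 in its group, and the highest sum of fat body markers (55212 TPM). There was 1 library per time point and none at 18 h, so the alternation between neighbouring hours had no replicate check. The library labelled as taken at the hour of the shift already had 158 TPM of Hsp26 and 106 TPM of Hsp68, against 17.4 TPM of Hsp26 and 29.3 TPM of Hsp68 in the 25°C library of the same hour.

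**Figure D5:**
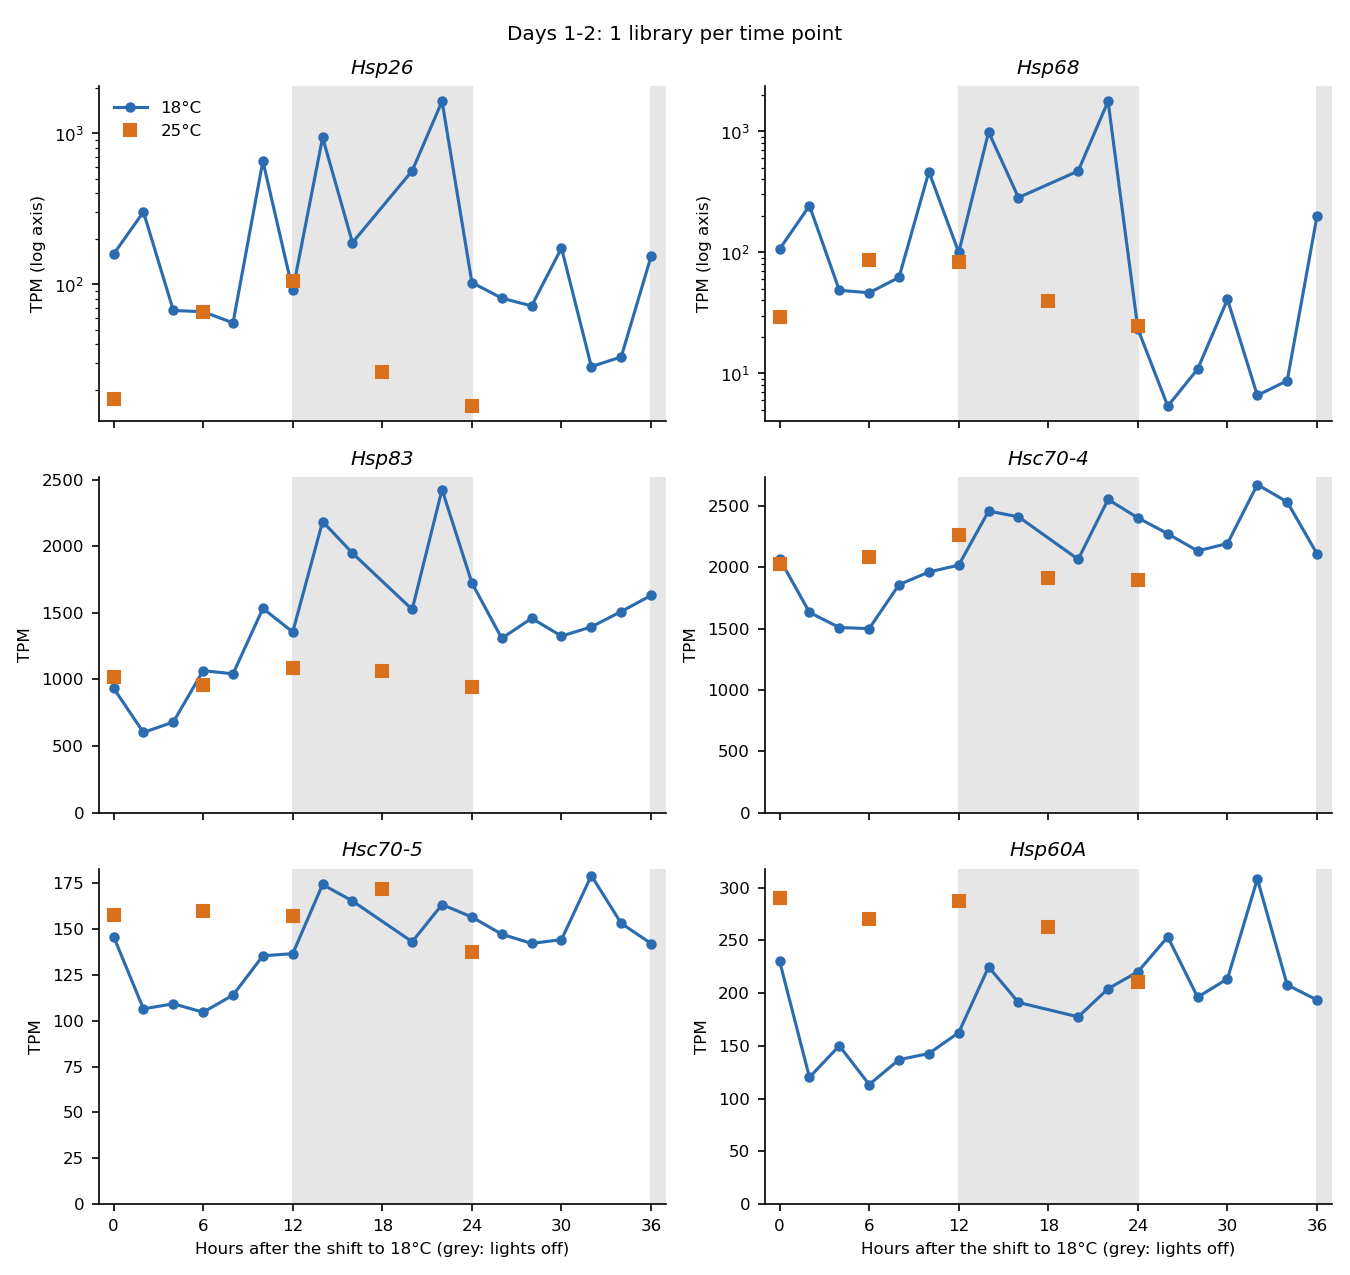
TPM of 6 genes against hours after the shift to 18°C, on a log axis for Hsp26 and Hsp68 and a linear axis from 0 for the others. Blue circles are 18°C libraries and orange squares 25°C libraries, 1 per time point, and grey marks lights off. Hsp26 and Hsp68 peak at 22 h (1627 and 1763 TPM), and Hsp60A is lowest at 6 h at 18°C (113 TPM), where the 25°C library had 270 TPM.

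The constitutive genes took another course from the shift to 2 h, where the inducible genes rose. Hsp60A had 230 TPM at the shift and between 113 and 150 TPM from 2 h to 8 h at 18°C, where the 25°C libraries at 0 h and 6 h held 290 and 270 TPM, and it had 225 TPM after 14 h. Hsc70-5 had 146 TPM at the shift, between 105 and 114 TPM from 2 h to 8 h and 174 TPM after 14 h. Hsc70-4 had 2070 TPM at the shift, between 1501 and 1859 TPM from 2 h to 8 h and 2459 TPM after 14 h. Hsp83 had 934 TPM at the shift, 602 TPM after 2 h, 681 TPM after 4 h and 2186 TPM after 14 h. Its highest value of the whole series (2426 TPM) fell in the 22 h library, like those of the inducible genes. Hsc70-4 had 2553 TPM in that library, rank 2 in its group. All 4 genes were lower at 2 h and 4 h than at the shift and higher at 14 h than at 4 h, with no replicate at any hour.

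The days could be compared at 18°C over the 6 hours from ZT02 to ZT12 that both held. Hsp60A was higher on the second day at 6 of 6 hours, with a median of 211 TPM on the second day and 140 TPM on the first, and a difference of 0.72 (SE 0.146, limma adjusted p = 0.0575). Hsc70-4 had medians of 2234 and 1746 TPM on the second and first day (difference 0.41, SE 0.099, limma adjusted p = 0.0651), and Hsc70-5 had 146 and 112 TPM (difference 0.36, SE 0.106, limma adjusted p = 0.0888), each higher on the second day at 6 of 6 hours. The share of all genes that were higher at 6 of 6 hours was not counted. Over all tested genes the median difference was 0.17, and -0.0028 on rescaled TPM. Germline markers were higher on the second day at 5 of these 6 hours, with sums between 26.9 and 684 TPM on the second day and between 30.8 and 84.9 TPM on the first, and their part in these differences was not tested by itself. Over settings that included rescaled TPM and marker covariates, the difference was as low as 0.39 for Hsp60A, 0.23 for Hsc70-4 and 0.13 for Hsc70-5. The limma adjusted p of each reached up to 0.998 over these settings. Hsp83 had 1427 and 1054 TPM (difference 0.53, SE 0.171, limma adjusted p = 0.105, higher at 5 of 6 hours), and -0.26 with germline, eggshell and gut scores as covariates. Hsp68 had 9.76 and 80.8 TPM (difference -2.52, SE 0.857, limma adjusted p = 0.118, higher on the second day at 1 of 6 hours).

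None of the 8 genes passed in that comparison, where 0.0951% of all tested genes passed with limma, 100% of them higher on the second day (61.1% on rescaled TPM). At an unadjusted p under 0.05 there were 5 of 8, against 28.1% of all genes, and the median difference was -0.21 over the 8 genes and 0.17 over all genes. When genes with a median TPM of 20 or less were left out, Hsp22, Hsp27 and Hsp68 were not tested, and of the rest only Hsp60A passed (limma adjusted p = 0.0481). Without ZT12, Hsp68 (-3.23, limma adjusted p = 0.0431), Hsp60A (0.81, limma adjusted p = 0.0290), Hsc70-4 (0.48, limma adjusted p = 0.0309) and Hsc70-5 (0.42, limma adjusted p = 0.0476) passed, in a fit in which 853 of all genes did.

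For 6, 12 and 24 h after the shift, 18°C could be set against 25°C with 1 library each. Hsp60A had 113, 163 and 220 TPM at 18°C at these hours, against 270, 288 and 211 TPM at 25°C. Hsp27 had 18.2, 20.6 and 33.9 TPM at 18°C, against 14.6, 32.3 and 2.26 TPM at 25°C, with ratios of 1.25, 0.64 and 15. Hsp83 was higher at 18°C at 3 of 3 hours, with 1066, 1356 and 1724 TPM at 18°C against 962, 1084 and 942 TPM at 25°C.

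None of these differences passed, nor did any gene (0.0% of tested genes with limma, and 0 of 8 here at an unadjusted p under 0.05, where 12% of all genes lay). The fitted difference was -0.67 for Hsp60A (SE 0.324, limma adjusted p = 0.475), 0.45 for Hsp83 (SE 0.256, limma adjusted p = 0.532), 0.53 for Hsp22 (SE 0.264), 0.81 for Hsp26 (SE 0.610), 1.03 for Hsp27 (SE 0.792), -0.24 for Hsp68 (SE 0.302), -0.099 for Hsc70-4 (SE 0.262) and -0.21 for Hsc70-5 (SE 0.260). Without the 24 h point, the difference was -0.099 for Hsp26 and -0.16 for Hsp27. In 17 libraries after the shift, 0 of 8 genes passed the rhythm test, where 0.0272% of all genes passed, and 5 of 8 had an unadjusted p under 0.05 against 6.12% of all genes. Those 5 were Hsp68 (amplitude 2.59, fitted maximum at ZT 17.6, p = 0.0145, adjusted p = 0.700), Hsp22, Hsp26, Hsp27 and Hsp83, with maxima between ZT 16.8 and ZT 18.8 and no library at ZT18 of either day. All libraries from ZT14 to ZT22 came from the first night, so these fits cannot separate time of day from time after the shift. Hsp22, Hsp26, Hsp27 and Hsp68 were largely high in the same libraries, so they are not separate counts.

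The inducible genes were lower on days 4-5 than on days 1-2 at 18°C. Hsp26 had a lowest, median and highest value of 6.78, 20.6 and 747 TPM on days 4-5, against 28.5, 103 and 1627 TPM in the 17 libraries after the shift on days 1-2, and 14 of 24 libraries of days 4-5 lay below the lowest of days 1-2. Hsp27 had 0.89, 5.54 and 231 TPM on days 4-5, against 9.83, 33.9 and 599 TPM on days 1-2, and 15 of 24 lay below. Hsp68 had 2.7, 9.0 and 511 TPM on days 4-5, against 5.36, 61.9 and 1763 TPM on days 1-2, and 3 of 24 lay below. The periods overlapped for all 3 genes through the few high libraries of days 4-5.

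With limma, 4 of 8 genes fell on days 4-5 relative to days 1-2 at 18°C and 0 were higher, where 30.0% of all tested genes passed (23.9% higher and 6.14% lower). Among all called genes 79.6% were higher on days 4-5, and 49.3% on rescaled TPM. Hsp68 fell by 2.24 on the log2(TPM + 1) scale (SE 0.686, limma adjusted p = 0.0132), Hsp26 fell by 1.90 (SE 0.573, limma adjusted p = 0.0118), Hsp27 fell by 1.86 (SE 0.586, limma adjusted p = 0.0156) and Hsp22 fell by 1.48 (SE 0.552, limma adjusted p = 0.0385). These 4 genes were largely high in the same libraries, so they are not separate counts. The median difference was -0.89 over the 8 genes and 0.13 over all tested genes. Hsp23, tested without the filter, fell by 1.70 (SE 0.492, limma adjusted p = 0.0181), and in that fit Hsp22 no longer passed (limma adjusted p = 0.0809). Hsp83 had -0.30 (SE 0.119, limma adjusted p = 0.0527), Hsp60A 0.23 (SE 0.110, limma adjusted p = 0.116), Hsc70-5 0.16 (SE 0.073, limma adjusted p = 0.0953) and Hsc70-4 -0.069 (SE 0.066, limma adjusted p = 0.431). On rescaled TPM Hsp83 (-0.41, limma adjusted p = 0.00733) and Hsc70-4 (-0.18, limma adjusted p = 0.0302) passed as lower. Hsp83 also passed with a median TPM above 20 (limma adjusted p = 0.0469) and without replicate 2 (limma adjusted p = 0.0404), and without replicate 2 Hsc70-5 passed as higher (0.23, limma adjusted p = 0.0128).

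The calls depended on the first day. The median of Hsp26 was 81.0 TPM over the 7 libraries of day 2 and 245 TPM over the 10 of day 1 after the shift, and that of Hsp68 was 10.8 TPM on day 2 and 262 TPM on day 1. The day 2 median of Hsp26 still lay above the 20.6 TPM of days 4-5, and that of Hsp27 (28.1 TPM) above the 5.54 TPM of days 4-5. Day 2 held no library after ZT12, whereas day 1 reached ZT22, so both days differ in time of day as well. At the 6 hours that both held, Hsp26 had medians of 76.4 TPM on day 2 and 79.1 TPM on day 1. The medians on day 2 and day 1 were 19.6 and 19.4 TPM for Hsp27, and 9.76 and 80.8 TPM for Hsp68. With day 1 left out, a choice made after seeing the data, none of the 4 genes passed, with differences of -0.038 for Hsp68, -0.10 for Hsp22, -0.90 for Hsp26 and -0.95 for Hsp27 (limma adjusted p = 0.990, 0.956, 0.604 and 0.587). With day 2 left out all 4 passed, with differences of -3.46 for Hsp68, -2.42 for Hsp26, -2.33 for Hsp27 and -2.17 for Hsp22, and Hsp60A was higher on days 4-5 by 0.44 (limma adjusted p = 0.00191). Leaving out 1 library of days 1-2 at a time left the calls of Hsp26, Hsp27 and Hsp68 in 17 of 17 fits, and ended that of Hsp22 in 8 of 17 fits (limma adjusted p up to 0.0913). The summed eggshell markers had a median of 154 TPM on days 4-5 and 92.4 TPM on days 1-2 at 18°C, and muscle markers 2032 and 2973 TPM. With germline, eggshell and gut scores as covariates, all 4 calls stood.

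At 25°C the same comparison gave another list. On days 4-5 relative to days 1-2, 1 of 8 genes was lower and 0 were higher, where 20.7% of all tested genes passed (16.1% higher and 4.61% lower). Among all called genes 77.8% were higher, and 47.6% on rescaled TPM. Hsp60A fell by 0.33 (SE 0.112, limma adjusted p = 0.0347), with a lowest, median and highest value of 128, 211 and 264 TPM on days 4-5, against 211, 270 and 290 TPM in the 5 libraries of days 1-2. The eggshell markers moved with this comparison, with a median of 24 TPM on days 4-5 and 1363 TPM on days 1-2 at 25°C, and the call was lost with the marker scores as covariates (-0.15, limma adjusted p = 0.375), without the filter on low values (limma adjusted p = 0.0586) and without any 1 of 4 of the 5 early libraries (limma adjusted p up to 0.191).

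The inducible genes did not pass at 25°C. Hsp22 was at 0.67 (SE 0.811), Hsp26 at 0.55 (SE 0.903), Hsp27 at 0.38 (SE 1.01) and Hsp68 at -0.95 (SE 0.989), with limma adjusted p-values between 0.536 and 0.832. Their medians were all lower on days 4-5 than on days 1-2. Hsp68 had medians of 9.79 and 39.9 TPM, and Hsp26 had 21.6 and 26.3 TPM. Hsp83 was at 0.082 (SE 0.122), Hsc70-4 at 0.091 (SE 0.066) and Hsc70-5 at -0.12 (SE 0.062), which passed as lower on rescaled TPM at -0.21 (limma adjusted p = 0.0228). Whether the change between periods differed between temperatures was tested at ZT00, ZT06 and ZT12 over 27 libraries, where 1.62% of all tested genes (0.394% higher and 1.22% lower) and 0 of these 8 passed. Among all called genes 24.4% had a positive difference in change, and 49.1% on rescaled TPM. The difference in change, 18°C minus 25°C, was -1.49 for Hsp26 (SE 1.42), -1.42 for Hsp27 (SE 1.52), -1.26 for Hsp22 (SE 1.20), 0.17 for Hsp68 (SE 1.61) and 0.55 for Hsp60A (SE 0.257, limma adjusted p = 0.274). Errors of this size do not separate the periods' course at 18°C from that at 25°C for the inducible genes.

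Other chaperone genes were read from 4 lists. The counts that follow stand beside 35.3% higher and 15.5% lower over all genes on days 4-5, 23.9% higher and 6.14% lower for the periods at 18°C, and 16.1% higher and 4.61% lower for the periods at 25°C. Of 18 other heat shock genes 5 were tested, and on days 4-5 2 of these were higher and 1 lower at 18°C: Hsf, the heat shock factor itself, exceeded its 25°C level by 0.23 (SE 0.045, limma adjusted p = 4.85e-05), Hsc70-3, the Hsp70 of the endoplasmic reticulum, by 0.22 (SE 0.079, limma adjusted p = 0.0197), and the small heat shock protein gene l(2)efl fell by 0.55 (SE 0.148, limma adjusted p = 0.00163). Of 15 co-chaperones 4 were higher and 2 lower at 18°C, with Fkbp59 higher by 0.36 (SE 0.045, limma adjusted p = 5.24e-09) and Stip1 lower at -0.16 (SE 0.069, limma adjusted p = 0.0425). Of 7 tested mitochondrial partners 2 were higher, ClpP by 0.21 and the nucleotide exchange factor gene Roe1 by 0.17. All 8 subunits of the cytosolic chaperonin TRiC were tested, and 7 were higher at 18°C, among them CCT2 by 0.48 and CCT3 by 0.45, with a list median of 0.37 against 0.09 over all genes. The eggshell markers given above were higher at 18°C as well, and their part in this was not tested. On rescaled TPM 4 co-chaperones were higher and 4 lower, 7 of the 8 TRiC subunits were still higher (list median 0.30), Hsf was still higher by 0.16 (limma adjusted p = 7.52e-05), and Hsc70-3 (0.15, limma adjusted p = 0.105) and Roe1 (0.10, limma adjusted p = 0.189) no longer passed.

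At 18°C, days 4-5 against days 1-2, the same lists held inducible genes that fell and mitochondrial ones that were higher. Of the 5 tested other heat shock genes 2 were lower and 0 higher, and of the 15 co-chaperones 2 were lower and 1 higher. DnaJ-1 fell by 0.89 (SE 0.212, limma adjusted p = 0.00197), stv fell by 0.70 (SE 0.225, limma adjusted p = 0.0186), lncRNA:Hsromega fell by 0.69 (SE 0.186, limma adjusted p = 0.00541) and Hsp70Ab fell by 3.29 (SE 0.983, limma adjusted p = 0.0112). These 4 were also among the genes most similar to the inducible genes over the same libraries, so their fall is not separate evidence. Of the mitochondrial partners, 5 of 7 were higher on days 4-5 and 0 lower, among them Roe1 by 0.39, the mitochondrial Hsp90 gene Trap1 by 0.33 and the protease gene Lon by 0.23. On rescaled TPM the 4 genes that fell still passed, 6 of the 15 co-chaperones were lower and 0 higher, and 3 of the 7 mitochondrial partners were higher. The genes of these lists were not examined with day 1 left out, a setting in which the inducible members no longer passed. None of the 8 TRiC subunits passed at 18°C, and 4 of 8 were lower on days 4-5 than on days 1-2 at 25°C (8 of 8 on rescaled TPM), where eggshell markers had a median of 24 TPM on days 4-5 and 1363 TPM on days 1-2. At 25°C, 1 of the 5 other heat shock genes was lower on days 4-5 and 1 higher. Of the co-chaperones 5 were higher and 0 lower, and of the mitochondrial partners 1 was lower and 0 higher. On rescaled TPM at 25°C, l(2)efl was at -1.16 (limma adjusted p = 3.4e-04). Hsp70Ab (-2.62), DnaJ-1 (-0.14), lncRNA:Hsromega (-0.098) and stv (0.056) did not pass there.

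The Hsp70 copies are nearly identical in sequence, so the level of any 1 copy, Hsp70Ab included, is uncertain and their sum is the safer measure. The summed Hsp70 copies had a lowest, median and highest value of 2.82, 16.7 and 2251 TPM at 18°C, against 2.01, 9.74 and 4692 TPM at 25°C on days 4-5. On days 1-2 the sums were 3.36, 591 and 4541 TPM at 18°C, against 58.7, 198 and 305 TPM at 25°C. The groups overlapped in both periods, and the highest library of each temperature on days 4-5 lay far above its median.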

How the data were processed

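Abdominal fat bodies of pooled female flies were profiled in 73 libraries. Non-stranded poly(A) libraries were sequenced, and reads were trimmed, aligned with STAR 2.7.10a and quantified with RSEM on Ensembl BDGP6.32 by the authors. The authors deposited TPM (transcripts per 1000000), 23932 genes by 73 libraries, each column summing to 1000000, so depth is unknown and a very abundant transcript lowers all others. Duplicate reads were removed according to the methods; whether the deposited table holds that version is not given in the sources used here. Groups, days and hours came from the sample titles, and 0 columns were left unmapped.

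Values were transformed as log2(TPM + 1), which understates changes of low genes. The tests covered the 7358 genes whose median on days 4-5 exceeded 5 TPM at 18°C, at 25°C or at both, with limma 3.58.1 in R 4.3.3 or by harmonic regression with a 24 h period, with Benjamini-Hochberg adjustment over all of them and a threshold of 0.05. The library at the shift entered no 18°C test. Each limma and harmonic fit was also run on simulated data, with an outcome that is not reported here. The 9 genes and the chaperone and marker lists were chosen with earlier results of these data known. Named genes are the 9, the 3 most similar genes to each, and up to 6 per list by size of a significant difference on days 4-5. Those named for other comparisons (DnaJ-1, stv, lncRNA:Hsromega, Hsp70Ab, Trap1, Lon) were chosen after their values were seen, unless they were among the most similar genes. Alternatives covered pseudocounts, filters, rescaled TPM, marker covariates, replicate blocks and libraries left out.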

Additional observations from a re-analysis of the deposited data

How the results depend on the processing

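TPM keeps no depth, so precision rests on the number of libraries, and most hours had 1. Rescaling moved the median of all genes by -0.21 for the days 1-2 temperature difference, -0.18 for the second against the first day, -0.10 for days 4-5 against days 1-2 at 18°C and 0.13 for temperature by period. Over the 8 genes, alternatives that left out neither a single library nor a replicate gave 499 values on the same side of the threshold and in the same direction, 26 that came to pass, 15 that no longer passed and 14 with the opposite sign. The 26 include rhythm values that came to pass only because the threshold was loosened to an unadjusted p under 0.1, with the fit unchanged. The cause was not tested for any of these changes. Marker covariates could not be fitted for the days 1-2 temperature difference, nor temperature by period and both period comparisons without replicate 1.

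Counts over all genes moved as follows. Without a filter on low values, calls were 12 for differential rhythm, 76 for temperature by period, 0 for the second against the first day, and 41 for rhythm at 18°C, 227 at 25°C and 1 on days 1-2. With a median TPM above 20 they were 112 for the second against the first day and 1 for rhythm on days 1-2. On rescaled TPM they were 214 for temperature by period, 54 for the second against the first day and 1 for rhythm on days 1-2. With marker covariates they were 447 for temperature by period, 2 for the second against the first day and 702 for days 4-5 against days 1-2 at 25°C. A pseudocount of 5 gave 0 for the second against the first day. Adding the library at the shift gave 1 for rhythm on days 1-2. At an unadjusted p under 0.1 the rhythm counts were 2869 at 18°C, 2352 at 25°C and 873 on days 1-2. Leaving out day 1 or day 2 (chosen after seeing the data) gave 417 and 3844 for days 4-5 against days 1-2 at 18°C.

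Without replicate 1 the counts were 330 for the settled temperature difference and 0 for differential rhythm and for rhythm at 18°C and at 25°C, and without replicate 2 they were 30 for differential rhythm, 753 for temperature by period, 2203 for days 4-5 against days 1-2 at 25°C, 1105 for rhythm at 18°C and 213 at 25°C. With single libraries or hours left out, also chosen after seeing the data for the settled difference and for days 4-5 against days 1-2 at 18°C, the counts ran from 3575 to 3897 for the settled difference, from 0 to 49 for the days 1-2 temperature difference, from 17 to 38 for temperature by period (17 without ZT12 of day 1 at 25°C), from 0 to 853 for the second against the first day (853 without ZT12), and from 738 to 1798 for days 4-5 against days 1-2 at 25°C, where leaving out ZT00 or ZT12 of day 1 gave 755 and 738.

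Replicate numbers did not pair the samples, since same-numbered pairs correlated from -0.459 to 0.541 over 24 pairs, 6 of them above 0.1. With the replicate number as a block the counts were 208 for temperature by period, 2385 for days 4-5 against days 1-2 at 25°C, 268 for rhythm at 18°C and 590 at 25°C, Hsp83 no longer passed between temperatures (0.16, limma adjusted p = 0.0550), and Hsc70-5 passed as higher on days 4-5 than on days 1-2 at 18°C (0.23, limma adjusted p = 0.00995).

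Between temperatures on days 4-5, marker covariates gave -0.40 for Hsp26, -0.040 for Hsp27 and -0.24 for Hsp68, library weights gave -0.47 for Hsp26 and -0.62 for Hsp68, and rescaling gave -0.039 for Hsp68, all of the opposite sign. Without replicate 1 the sign turned for Hsc70-5 (-0.12), Hsp22 (1.54) and Hsp60A (-0.29) and was kept for Hsp26 (0.95) and Hsp68 (2.01). Without replicate 2 it turned for Hsp26 (-0.15) and Hsp68 (-0.59) and was kept for Hsc70-5 (0.22), Hsp22 (-0.96) and Hsp60A (0.21). The signs also turned in the cases that follow. For temperature by period, marker covariates gave -1.48 and leaving out replicate 2 gave -1.25 for Hsp68, and rescaling gave 0.049 for Hsc70-4. For the second against the first day, marker covariates gave 0.36 for Hsp22 and -0.26 for Hsp83. For days 4-5 against days 1-2, Hsp60A was at -0.068 without day 1 and Hsc70-4 at 0.043 without day 2 at 18°C, and rescaling gave -0.014 for Hsp83 and -0.0053 for Hsc70-4 at 25°C.

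With single libraries left out, ranges that crossed 0 between temperatures on days 4-5 were -0.0080 to 0.34 for Hsp26 and -0.16 to 0.23 for Hsp68. On days 1-2 they were -0.099 to 1.32 for Hsp26, -0.16 to 1.86 for Hsp27, -0.48 to 0.087 for Hsp68 and -0.32 to 0.088 for Hsc70-4. For temperature by period they were -2.69 to 0.097 for Hsp27, up to 0.91 for Hsp68 and -0.15 to 0.00099 for Hsc70-4, and for days 4-5 against days 1-2 at 25°C -0.18 to 1.49 for Hsp27.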
